A study of Mus musculus with 48 samples.

Results

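The 10 genes described here mark resident macrophages of lymphoid organs. They are the transcription factor gene Spic, the secreted scavenger protein gene Cd5l, the surface receptor genes Siglec1, Adgre1, Marco, Timd4 and Mrc1, and the complement genes C1qa, C1qb and C1qc. They were chosen by symbol, and all 10 were found among the 55486 genes of a bulk RNA sequencing count table from mice with and without QPCTL, the Golgi glutaminyl cyclase that cyclises amino-terminal glutamine of proteins in the secretory pathway. The series holds 48 samples in 5 groups by source. Its design compares homozygous QPCTL-KO mice with littermates wild-type for that allele, all of the strain labelled QPCTL-KO C57/Bl6JR.

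Used here were 8 libraries of whole spleen and 8 of whole bone marrow from uninoculated mice aged 10 to 15 weeks, and 12 libraries of live CD45-negative cells sorted from B16F10 melanomas 14 days after inoculation. By the labels each organ group holds 4 knockout and 4 wild-type samples and the tumour group 6 of each, and the tumour cells injected had the genotype of the host. No used count column carries a genotype, so knockout and wild-type libraries are pooled in every value below and the effect of the knockout is not analysed here. The 20 lymph node columns do not show which are the 8 baseline and which the 12 tumour-bearing samples, and they are not analysed here either. Of the 5 planned comparisons between sources, spleen against bone marrow is therefore given.

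Tissue macrophages settle in an organ, persist there and take on its duties. In the spleen, red pulp macrophages engulf aged red cells and recycle their iron under the control of Spi-C, the product of Spic, while marginal zone and metallophilic macrophages take up particles from the blood through receptors such as MARCO and sialoadhesin, the product of Siglec1. In the marrow, macrophages sit at the centre of erythroblastic islands. C1q, the recognition molecule of the classical complement pathway, is built from A, B and C chains that are made mainly by macrophages and dendritic cells, and it also tags dying cells for engulfment.

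The C1q genes lie side by side on the minus strand of chromosome 4 in GRCm38, within 18675 bases: C1qb at 136880129 to 136886187, C1qc at 136889804 to 136893065 and C1qa at 136895917 to 136898803. Each has 3 merged exons. Of the other genes, Marco lies on chromosome 1 (120474538 to 120505024, minus), Siglec1 and Mrc1 on chromosome 2 (131069220 to 131086765, minus, and 14229392 to 14332057, plus) and Cd5l on chromosome 3 (87357881 to 87371073, plus). Spic lies on chromosome 10 (88674772 to 88685015, minus), Timd4 on chromosome 11 (46810800 to 46844332, plus) and Adgre1 on chromosome 17 (57358691 to 57483527, plus). RefSeq promoters of build GRCm38.p6 were available for 7 of the 10 genes. They were searched in the 250 bases before the start for GAGGAA, the core motif known as a PU box to which factors of the PU.1 family bind, and for TTCCTC, the same letters read on the other strand. Of the 7 promoters 5 held it, those of Marco, Mrc1, Cd5l, C1qb and C1qc, as did 23.3% of all 32851 promoters of the table over the same length. The motif was not in the window of Timd4, nor in that of Spic, whose RefSeq start and window lie inside the gene as GENCODE annotates it. A match is a description of letters and not of binding. The sequences of Marco, Cd5l, C1qb and C1qc are shown because these genes were higher in spleen, with the motif in capitals and each gene's strand read 5′ to 3′. Those of Marco (chr1:120505025-120505274, minus), Cd5l (chr3:87357631-87357880, plus) and C1qb (chr4:136886201-136886450, minus) cover 250 bases, and that of C1qc (chr4:136893066-136893164, minus) the 99 bases upstream of its outermost annotated exon.
Marco: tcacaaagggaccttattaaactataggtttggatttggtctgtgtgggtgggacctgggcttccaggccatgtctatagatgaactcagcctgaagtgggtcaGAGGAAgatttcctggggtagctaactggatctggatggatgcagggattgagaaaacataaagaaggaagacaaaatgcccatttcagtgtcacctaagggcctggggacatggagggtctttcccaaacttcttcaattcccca
Cd5l: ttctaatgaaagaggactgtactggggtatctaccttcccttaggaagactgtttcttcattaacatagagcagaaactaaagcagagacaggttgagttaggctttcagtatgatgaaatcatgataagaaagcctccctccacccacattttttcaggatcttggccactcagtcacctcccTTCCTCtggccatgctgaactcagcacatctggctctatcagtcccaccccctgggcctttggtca
C1qb: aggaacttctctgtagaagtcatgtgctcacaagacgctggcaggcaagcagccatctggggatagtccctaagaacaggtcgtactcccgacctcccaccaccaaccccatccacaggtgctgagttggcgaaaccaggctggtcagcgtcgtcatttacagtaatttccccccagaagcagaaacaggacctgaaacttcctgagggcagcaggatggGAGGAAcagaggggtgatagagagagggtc
C1qc: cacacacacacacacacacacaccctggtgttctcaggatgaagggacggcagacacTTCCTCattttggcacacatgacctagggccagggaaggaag

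Counts per library were low in this table and uneven. Total counts ran from 219229 to 626316 in spleen, from 227240 to 637985 in marrow and from 54117 to 510363 in tumour cells, against an average of 18 M reads per sample in the labels. Genes whose exons share 50 bases or more with a coding gene on the opposite strand held 61.23 to 83.78% of the counts. The light-strand mitochondrial gene mt-Nd6 had 15.23 to 110.1 times the median count of the heavy-strand mitochondrial coding genes, the highest value being that of spleen library 8. The kit keeps strand information, and whether the counts of a gene are reads of its own transcript is not settled. No exon or intron of the 10 genes overlaps an annotated gene on the other strand. Qpctl, the targeted gene, had 2 to 16 counts in spleen, 4 to 19 in marrow and 1 to 6 in tumour cells. The labels were checked by defining genes. The 10 neutrophil genes all passed the test as higher in marrow, 3 of 4 splenic identity genes (Tlx1, Nkx2-3 and Wt1) passed as higher in spleen without a filter on low counts, and the 9 melanoma genes all had counts in tumour cells. In the plot of marker lists, which leaves out the splenic identity genes, the neutrophil ranges of spleen and marrow do not overlap. The melanoma range of tumour cells lies above those of both organs. The B cell, T cell, erythroid and leukocyte ranges of spleen and marrow overlap.

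**Figure D1:**
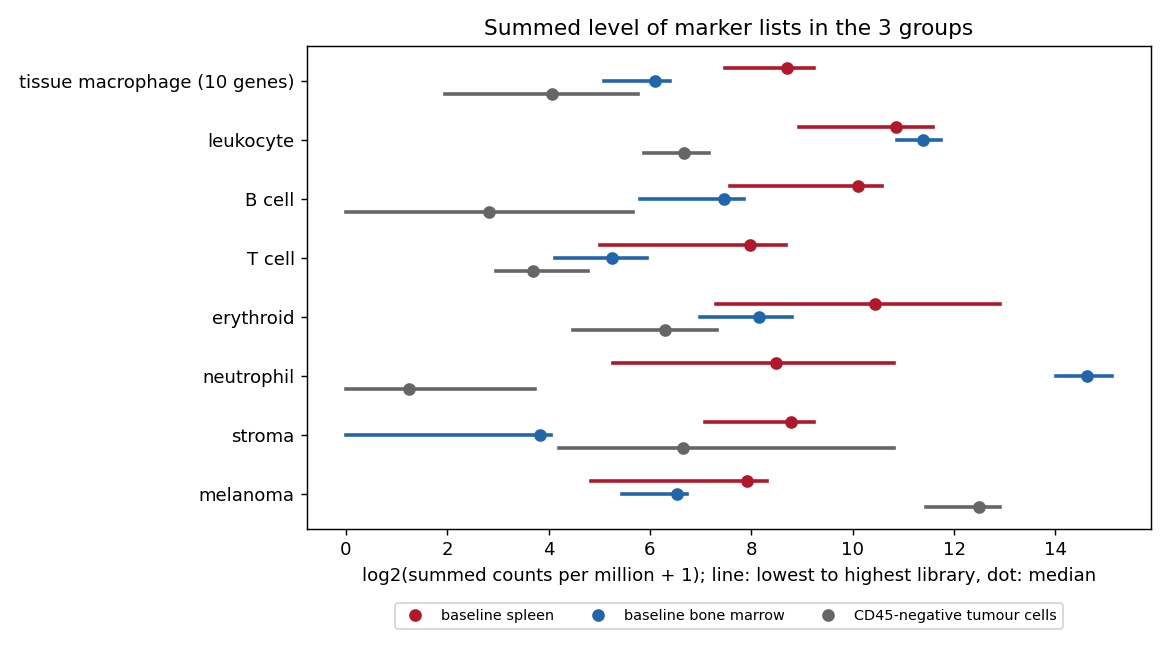
Summed CPM of 8 marker lists, on a log2 scale with 1 added, in spleen (8 libraries), bone marrow (8) and CD45-negative tumour cells (12); lines run from the lowest to the highest library and dots are medians. The 10 macrophage genes summed to 178 to 600.3 in spleen, 33.1 to 83.5 in marrow and 2.90 to 53.0 in tumour cells.

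Of the 3 sources, the spleen had most counts of the macrophage genes. Their summed counts per library ran from 33 to 231 in spleen (median 129), from 12 to 50 in marrow (median 29.5) and from 1 to 10 in tumour cells (median 4.5). In counts per 1 M library counts scaled by TMM factors (CPM), the lowest spleen library had 178 and the highest marrow library 83.5, so the organs did not overlap. All 10 genes had counts in 6 of the 8 spleen libraries, library 6 had 8 of them and library 8 had 7. In whole organs, fewer macrophages and less RNA per macrophage cannot be told apart.

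Spleen and marrow were compared with edgeR's quasi-likelihood test, after the tool's default filter on low counts. It tested 4239 genes and called 1598 of them at an adjusted p below 0.05, or 37.7%, with 17.6% higher in spleen and 20.1% higher in marrow. This balance of 748 against 850 genes turned to 826 against 783 with RLE factors and to 930 against 872 with DESeq2. With library size alone it kept its direction, at 678 against 931. Only Marco and C1qc of the 10 genes passed the filter, and both were called as higher in spleen. Both passed the filter through their spleen counts alone, and a gene that passes in this way had to differ, so nothing is read from these calls. Both were also called among the 2269 genes without opposite-strand coding exons, of which 39% were called and 19.2% were higher in spleen. That fit used the same filter, so nothing is read from these calls either. The other 8 genes were too low for this fit, and their values come from the same test run without a filter, in which 22736 genes were tested and 20.8% called. There 12.4% of genes were called higher in spleen and 8.42% higher in marrow, and the median over all genes was 0.20 on the log2 scale. In that fit 8 of the 10 macrophage genes were called, all as higher in spleen, and their median over the 10 was 2.22. Adgre1 and Mrc1 were not called. The p-values rest on a spread between libraries that holds both genotypes and is in part shared across genes. C1qa and C1qc had nearly equal standard errors without a filter (0.318 and 0.317). Their spleen SDs on log2 counts with 1 added were 1.42 and 0.41. The p-values without a filter therefore do not measure each gene's own spread between libraries.

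**Figure D2:**
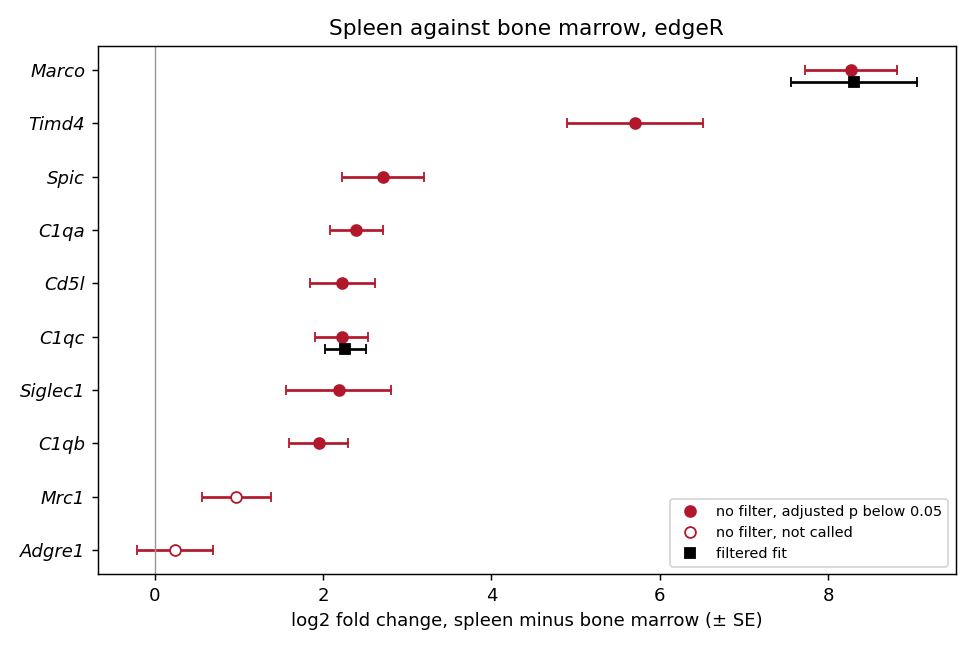
Log2 fold change of each macrophage gene, spleen minus bone marrow, with its standard error, from edgeR without a filter (circles, filled where the adjusted p is below 0.05) and with the default filter (squares, for the 2 genes that passed it). Marco and Timd4 lie far to the right of the other genes, at 8.27 and 5.71, and Adgre1 lies near 0.

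Marco encodes a class A scavenger receptor of marginal zone macrophages that binds bacteria. Its counts in the spleen libraries ran from 8 to 61 (median 36), and all 8 marrow and all 12 tumour libraries had 0. In CPM the spleen level was 103 ± 58.0 (SD, n = 8), with libraries 6 (31.6) and 1 (37.1) lowest and library 5 (199) highest. Every spleen library was above every marrow library. Against a floor of 3 counts over the whole marrow group, the spleen mean was at least 119-fold higher. Without a filter the fitted log2 fold change was 8.27 (SE 0.55, edgeR). In the filtered fit, which Marco entered through its spleen counts alone, it was 8.31 (SE 0.74, edgeR, adjusted p = 3.06e-07), and nothing is read from that call. Both values depend on the prior count since the marrow was at 0.

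Timd4 encodes a phosphatidylserine receptor, TIM-4, with which resident macrophages bind dying cells. It too was at 0 in all marrow and tumour libraries, and in spleen its counts ran from 0 to 15 (median 6). In CPM it was 16.3 ± 12.4 (SD, n = 8), with library 8 at 0, libraries 4 (2.88) and 6 (3.94) low and library 7 (32.1) highest. The spleen mean was at least 18.9-fold above the marrow floor. Without a filter the fitted log2 fold change, again dependent on the prior count, was 5.71 (SE 0.80, edgeR, adjusted p = 7.57e-11). The groups touch at 0 through spleen library 8 alone.

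Siglec1 encodes sialoadhesin, the sialic acid receptor CD169 of metallophilic and sinus macrophages. It had 0 to 6 counts in spleen libraries (median 3.5) and 0 to 3 in marrow libraries (median 0.5). At 10.4 ± 5.05 CPM in spleen and 1.79 ± 2.18 in marrow (SD, n = 8 each), its log2 fold change without a filter was 2.18 (SE 0.62, edgeR, adjusted p = 0.00358). Spleen library 6 had no count, and the other 7 were above every marrow library. With 27 counts in all of the spleen libraries it was the least counted gene of the 10 there.

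Spic and Cd5l belong to the red pulp programme, Spic as its regulator and Cd5l as a product of macrophages under liver X receptor (LXR) control that limits cell death and lipid synthesis. Spic had 1 to 13 counts in spleen libraries (median 8) and 0 to 3 in marrow libraries (median 1.5), which gave 22.8 ± 13.9 and 2.73 ± 2.48 CPM (SD, n = 8 each). Library 6 was lowest in spleen with 3.94 CPM, inside the marrow range of 0 to 5.88, and the other 7 were above it. Without a filter the log2 fold change of Spic was 2.71 (SE 0.49, edgeR, adjusted p = 7.27e-07).

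Cd5l varied little among the spleen libraries. Its spleen counts ran from 5 to 19 (median 11.5) and its marrow counts from 1 to 5 (median 3). Its level was 34.6 ± 8.27 CPM in spleen, from 19.7 in library 6 to 43.9 in library 1, and 6.67 ± 2.70 CPM in marrow, where no library exceeded 10.1 (SD, n = 8 each). The organs did not overlap, and the log2 fold change without a filter was 2.23 (SE 0.39, edgeR, adjusted p = 2.56e-07).

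**Figure D3:**
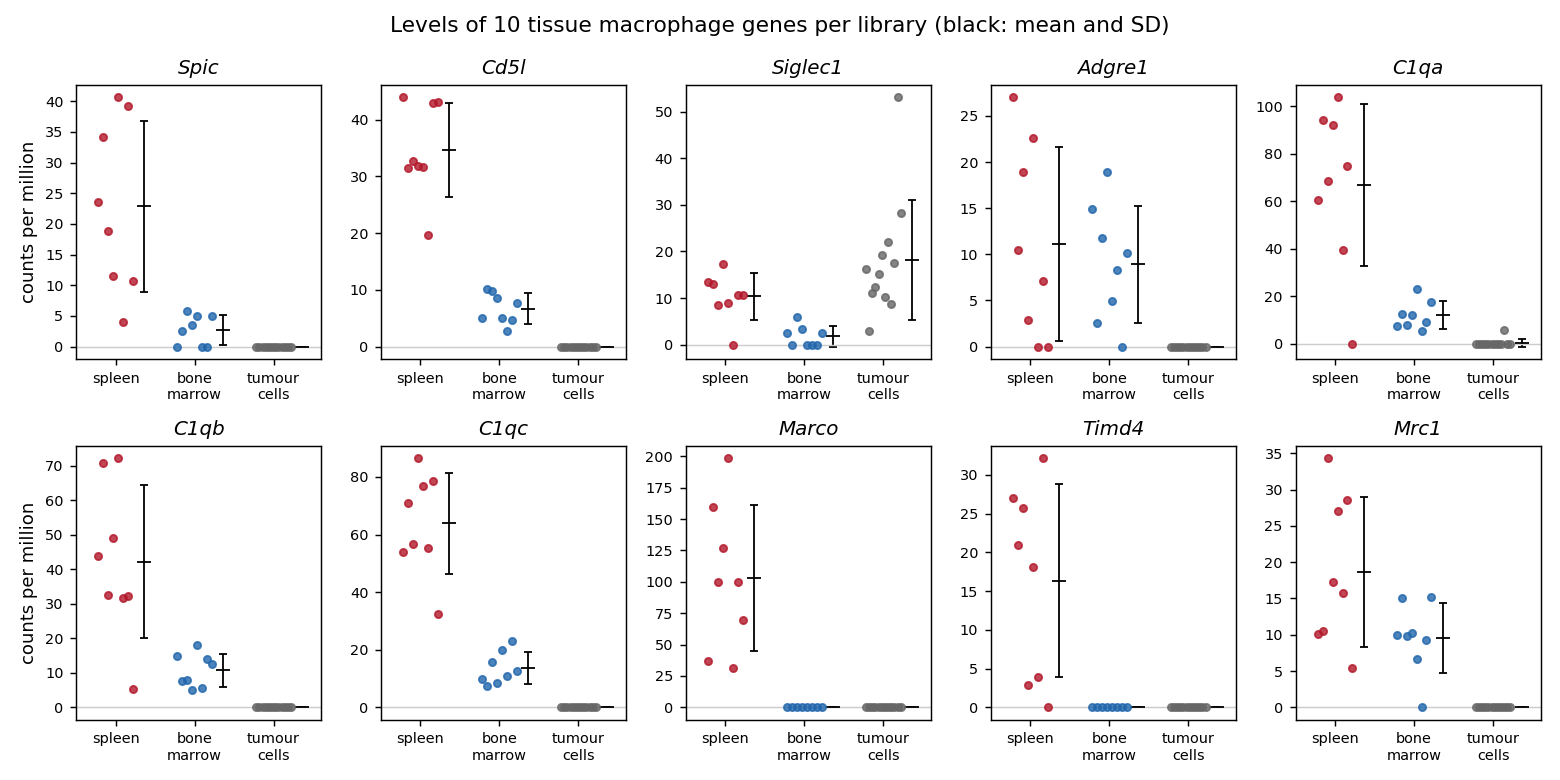
CPM of the 10 macrophage genes in each library of spleen, bone marrow and CD45-negative tumour cells, 1 point per library, with the mean and SD in black and a separate linear axis for each gene. Spleen and marrow points of Marco, Cd5l and C1qc do not overlap, those of Adgre1 overlap, and in tumour cells Siglec1 alone has counts in every library.

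The C1q chain genes were the most abundant of the set in marrow and, with Marco, in spleen. C1qa had 0 to 40 counts in spleen libraries (median 22) and 2 to 14 in marrow libraries (median 4.5). In CPM it stood at 66.8 ± 34.0 and 11.9 ± 5.91 (SD, n = 8 each), with a log2 fold change of 2.40 without a filter (SE 0.32, edgeR, adjusted p = 3.45e-12). Spleen library 8 had no count of C1qa, whereas the other 7 ran from 39.5 to 104 CPM and were above every marrow library.

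C1qb had 1 to 27 counts in spleen libraries (median 14.5) and 2 to 11 in marrow libraries (median 3.5). Its levels were 42.2 ± 22.1 and 10.7 ± 4.83 CPM (SD, n = 8 each), and its log2 fold change without a filter was 1.95 (SE 0.35, edgeR, adjusted p = 5.59e-07). Library 8 was again lowest in spleen, with 1 count and 5.38 CPM, inside the marrow range.

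C1qc had 6 to 33 counts in spleen libraries (median 19.5) and 3 to 12 in marrow libraries (median 5), or 63.9 ± 17.6 and 13.5 ± 5.56 CPM (SD, n = 8 each). The organs did not overlap. Its log2 fold change was 2.22 without a filter (SE 0.32, edgeR, adjusted p = 1.30e-10). In the filtered fit, which it entered through its spleen counts alone, it was 2.27 (SE 0.25, edgeR, adjusted p = 1.44e-07). Library 8, with 32.3 CPM, was the lowest in spleen here too. In that library the opposite-strand class held 79.69% of the counts, the largest share of the 8 spleen libraries, and Actb, a gene used in every cell, had 75 counts against 149 to 1156 in the others. The part of these values in its low C1q counts was not tested. Without library 8 the log2 fold changes of C1qa, C1qb and C1qc were 2.58, 2.11 and 2.33 in the fit without a filter, all called.

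The 3 chains form 1 protein, so their ratios were compared within libraries on log2 counts per kilobase with 1 count added. In marrow the SD of the log2 ratio was 0.57 for C1qa over C1qb, 0.64 for C1qa over C1qc and 0.46 for C1qb over C1qc, against SDs of the single chains that were similar (0.54, 0.58 and 0.51 for C1qa, C1qb and C1qc). In spleen the chains alone had SDs of 1.42, 0.89 and 0.41, and the ratios 0.67, 1.07 and 0.60 in the order given. The spread of C1qa, and that of C1qa over C1qc, holds the 0 count of library 8. Per kilobase the mean log2 ratio was 0.53 for C1qa over C1qb and 0.12 for C1qb over C1qc in spleen, each smaller than its SD. In marrow the mean was 0.20 for C1qa over C1qb, smaller than its SD, and 0.73 for C1qa over C1qc and 0.53 for C1qb over C1qc, each larger than its SD. At 2 to 14 counts a chain, the ratios in marrow carry much counting error.

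**Figure D4:**
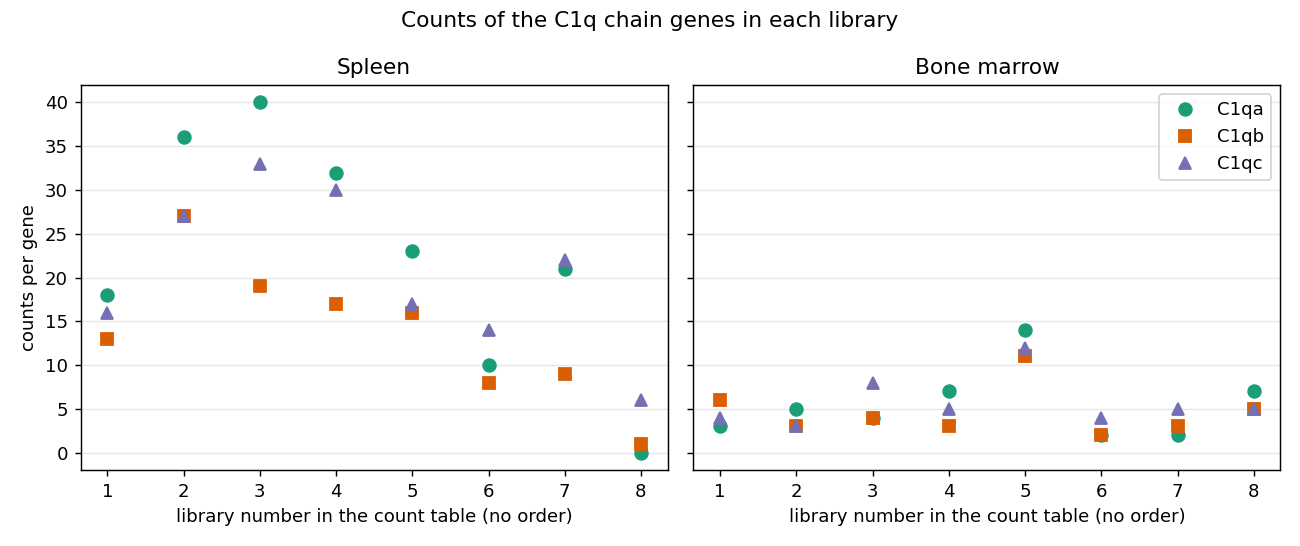
Counts of C1qa, C1qb and C1qc in each library of spleen and bone marrow, numbered as in the count table. The 3 genes lie between 8 and 40 in spleen libraries 1 to 7, between 0 and 6 in spleen library 8, and between 2 and 14 in marrow.

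Adgre1 and Mrc1 did not pass the test. Adgre1 encodes F4/80, the surface protein by which mouse macrophages are commonly sorted. It had 0 to 11 counts in both organs (medians 3 in spleen and 3.5 in marrow) and levels of 11.1 ± 10.5 and 8.93 ± 6.34 CPM (SD, n = 8 each). The organs overlapped. In spleen 2 libraries were at 0 and 2 (27.0 and 22.6 CPM) were above the highest marrow library (18.9), and the log2 fold change was 0.24 without a filter (SE 0.45, edgeR, adjusted p = 0.741). Differences of the size of its standard error could not be resolved at these counts.

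Mrc1 encodes the mannose receptor CD206. It had 1 to 20 counts in spleen libraries (median 5) and 0 to 6 in marrow libraries (median 4.5), at 18.6 ± 10.3 and 9.52 ± 4.83 CPM (SD, n = 8 each). The value without a filter was 0.97 on the log2 scale (SE 0.41, edgeR, adjusted p = 0.0762), and 5 of 8 spleen libraries were above every marrow library. Its call depended on single libraries. Leaving out spleen library 1, 2, 6 or 8 or marrow library 8 gave adjusted p of 0.0449, 0.0460, 0.0403, 0.0305 and 0.0450 in edgeR, with log2 fold changes of 1.04 to 1.11.

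Set on 1 scale per kilobase of exon, the genes could be ordered within an organ. In spleen C1qa (64.2 ± 32.7 CPM per kilobase), Marco (53.5 ± 30.1), C1qb (38.8 ± 20.4) and C1qc (33.1 ± 9.11) led, and these 4 differed from their neighbours by less than their SDs. Cd5l followed with 9.69 to 21.6 over the libraries (SD 4.06) and Timd4 with 7.52 ± 5.71, then Spic (5.95), Adgre1 (3.44), Mrc1 (2.92) and Siglec1 (1.45). In marrow C1qa (11.5 ± 5.69), C1qb (9.84 ± 4.44) and C1qc (7.01 ± 2.88) led, and Cd5l (3.27 ± 1.33) and Adgre1 (2.76 ± 1.96) followed. From Timd4 downward in spleen, neighbours in the order differed by less than the larger of their SDs. In marrow the same held within the C1q chains and from Cd5l to Mrc1 (1.49 ± 0.76), whereas Mrc1 and Spic (0.71 ± 0.65) differed by slightly more.

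Tumour cells had next to no counts of the set apart from Siglec1. Spic, Cd5l, Adgre1, C1qb, C1qc, Marco, Timd4 and Mrc1 were at 0 in all 12 libraries, and C1qa had 1 count in 1 library. Over the group's counts a floor of 3 counts corresponds to 0.853 CPM, which leaves the spleen mean at least 121-fold higher for Marco and at least 74.9-fold higher for C1qc. Among the leukocyte genes that the CD45 gate should remove, Ptprc, Cd52, Laptm5 and Cd53 were also at 0. The other 4 of that list had tumour counts, Arhgdib 298 in 12 of 12 libraries, Ptpn6 47 in 11, Lcp1 39 in 10 and Coro1a 1 in 1, and of these Arhgdib has opposite-strand coding exons.

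Siglec1 by contrast had 60 counts over the 12 tumour libraries, 1 to 10 in each (median 4.5). Its level of 18.1 ± 12.8 CPM (SD, n = 12) compares with 10.4 in spleen and 1.79 in marrow, and tumour and spleen libraries overlapped. The highest value was 53.0 in library 11, then 28.2 in library 12 and 22.1 in library 8, and the lowest 2.90 in library 2. Libraries 11 and 12 also had the largest shares of counts in the opposite-strand class of the tumour libraries (83.17 and 83.78%) and the highest mt-Nd6 ratios (92.49 and 75.61), and the part of strand in the Siglec1 counts was not tested. The nearest gene on the opposite strand, Atrn, lies 38887 bases away. In the authors' deposited table of the knockout and wild-type tumour comparison, Siglec1 alone of the 10 genes was among the 11340 listed. It had in the authors' deposited table a log2 fold change of 0.75, p = 0.0929 and an adjusted p of 0.380, and the direction of subtraction is not stated.

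Other complement genes were taken from lists. Counts of calls in the lists below are from edgeR without a filter, where 12.4% of all genes were higher in spleen and 8.42% higher in marrow. Those shares include every gene with a count in either organ, and genes of very few counts can hardly be called. Among the 4239 genes of the filtered fit 17.6% were higher in spleen and 20.1% higher in marrow. The lists were not matched to all genes by counts, so no excess is read from them. Of the 17 C1q partners and classical pathway genes 14 were tested, with 5 higher in spleen and 3 higher in marrow and a median log2 fold change of 0.67. The proteases that C1q carries were C1ra, with 37 counts in spleen and 3 in marrow (log2 fold change 3.60), and C1s1, with 61 and 0. Their substrate gene C4b had 113 and 1 counts, and Serping1, the inhibitor of these proteases, had 90 and 1. The 3 genes higher in marrow were C3, Hc and Cd93. C3 had 950 counts in spleen and 1788 in marrow (log2 fold change -0.56), Hc 0 and 17 (-3.95) and Cd93 19 and 108 (-2.04). In the filtered fit 5 members of the list were tested and 0 called. Among 21 genes of the other pathways, regulators and receptors, 18 were tested, with 6 higher in spleen and 3 higher in marrow. The complement receptor 2 gene Cr2, a B cell and follicular dendritic cell gene, had a log2 fold change of 4.05 (394 counts in spleen and 28 in marrow). Cfd, the factor D gene, had 45 counts in spleen and 0 in marrow, but its spleen counts lay in 5 libraries (median over the group 2) and 24 of them in 1 library. The myeloid receptor genes Itgam and C5ar1 were lower in spleen, at -4.16 and -5.46.

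Lists of macrophage genes outside the set moved both ways. Of 16 red pulp and iron-handling genes 15 were tested, with 8 higher in spleen and 4 higher in marrow (median 0.72). The adhesion gene Vcam1 and the haem oxygenase gene Hmox1 were higher in spleen, at 2.04 and 1.95 on the log2 scale, and the haptoglobin gene Hp and the PU.1 gene Spi1 were higher in marrow, at -4.61 and -2.04. Of 16 marginal zone and sinus genes 14 were tested, with 6 higher in spleen and 1 higher in marrow (median 1.44), the scavenger receptor genes Cd36 (4.77), Colec12 (4.50) and Stab2 (2.97) among the former. The dendritic cell receptor gene Clec9a, on that list too, had 3.07. The 1 gene higher in marrow was the scavenger receptor gene Msr1, with 4 counts in spleen and 29 in marrow (-2.18). Stab2 was also listed as a marker of blood and sinusoidal endothelium.

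Of 25 pan-macrophage and monocyte genes 10 were higher in spleen and 9 higher in marrow (median -0.08). In the filtered fit the balance leaned to marrow, with 4 of 12 higher in spleen and 7 higher in marrow (median -1.85). Apoe, the apolipoprotein E gene, had 2.43, whereas the lysozyme gene Lyz2 (-2.42), Itgam and the monocyte chemokine receptor gene Ccr2 (-3.05) were higher in marrow. Of 19 engulfment genes tested 7 were higher in spleen and 1 higher in marrow (median 1.02). The bridging molecule gene Mfge8 had 572 counts in spleen and 5 in marrow, a log2 fold change of 6.76. Gas6, which bridges dying cells to TAM receptors, had 56 and 3. Of 27 regulators of tissue macrophages tested, 14 were higher in spleen and 2 higher in marrow (median 1.26), with Relb (3.56), Ltb (1.87) and Spib (1.82), genes that lymphocytes also use, among the former. In the filtered fit 6 of these regulators were tested, with 1 higher in spleen and 2 higher in marrow (median -0.03). There the red pulp list had 4 of 10 higher in spleen and 2 higher in marrow, the engulfment list 2 of 5 and 0, and the other complement genes 2 of 6 and 1. Of the marginal zone list 1 gene was tested there and not called.

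Markers of other cell types moved with the organ as well. In the fit without a filter all 9 T cell genes, all 8 B cell genes, 8 of 10 erythroid genes, 7 of 8 stromal genes and 5 of 9 dendritic cell genes were higher in spleen, and all 10 neutrophil genes were higher in marrow. The summed neutrophil level was 37.7 to 1811 CPM in spleen and 16587 to 35560 in marrow. B cell genes summed to 189 to 1536 CPM in spleen and 55.1 to 231 in marrow, and stromal genes to 135 to 599 and 0 to 15.5. No defining gene of the T cell, B cell, erythroid and neutrophil lists was at 0 in either organ, while Col1a2, Col3a1 and Cxcl13 of the stromal list were at 0 in marrow and had counts in spleen. Ccl19 was at 0 in both organs, and Ccl21a had 2 counts in 1 spleen library and 0 in marrow. Their part in the levels of the macrophage genes, as shares of each library's counts, was not tested.

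For each gene the 3 genes with the most alike pattern over the 28 libraries were taken, by the mean absolute difference of centred log2 CPM among 18525 genes with a mean of at least 1 CPM. C1qb and C1qc were the nearest genes of C1qa (0.43 and 0.46), ahead of the B cell gene Pou2af1 (0.50). For C1qb, C1qc (0.399) was all but level with Ralgps2 and the B cell gene Blnk (0.404 each). The complement regulator gene Cd55 (0.29) and the phosphatase gene Acp5 (0.31), which macrophages and osteoclasts express, were nearest to C1qc, followed by the immunoglobulin gene Iglc1 (0.35). Nearest to Cd5l was Il2rb (0.20), a cytokine receptor gene of lymphocytes, ahead of the macrophage gene Aif1 (0.24). Nearest to Marco were Gm37975 (0.33), Smoc2 (0.37) and Cxcl13 (0.48), a chemokine gene of splenic stroma. Eln and Cldn5, genes of vessel wall and endothelium, were nearest to Timd4 (0.21 and 0.24). Low and 0 values that libraries share make such differences small, and over the 16 organ libraries only 3 of the 30 genes were named again.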

How the data were processed

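Per the labels' protocols, RNA was sequenced after TruSeq Stranded mRNA preparation as paired-end reads of 50 bases, and the submitters' processing notes name HISAT2, edgeR, GRCm38 and mm10. The counting program and its strand setting were not stated in these sources. The authors' deposited table of counts holds whole-number counts per gene. Their tumour table holds, per the file headers, log2 fold changes, mean log2 CPM, an F score and p-values. Of 48 per-sample columns 20 were not used, because their names show no group. The 1 row without a gene name had 0 counts.

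Positions and strand came from GENCODE M21, identical in start and end for 98.8% of genes. edgeR 4.0.16 (R 4.3.3) was run with TMM factors, its default filter and Benjamini-Hochberg adjustment over all genes tested. SE is the log2 fold change over the square root of F. Levels are CPM on TMM-scaled library sizes. Low counts limit precision: a floor of 3 counts covers counting error only. Within-group pairs of libraries differed beyond sampling noise, with a chi-square per degree of freedom of at least 1.37. Whether libraries came from separate animals is as the labels number them, and spleen and marrow may share animals. On simulated counts for spleen against marrow, the filtered fit (4466 genes) recovered 59.5% of 2-fold and 98.9% of 4-fold changes among genes tested. The fit without a filter (21332 genes) recovered 46% and 100%. The changed genes were drawn only from genes above a minimum mean count. Genes with means as low as those of Siglec1, Timd4, Adgre1 and Spic were not among them, so these rates do not cover such genes.

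The genes and lists were chosen with earlier results of these data known. Named were all 10 genes, Qpctl, the 4 genes of smallest p per list, the 3 most alike genes and defining markers. Some were left unnamed, and Actb, C3, Hc, Cd93 and Msr1 were named after their values were seen. Alternatives were DESeq2 1.42.0, other size factors and filters, all 3 groups in 1 fit, and no genes with opposite-strand coding exons. Leaving out each library, and changes to the fit without a filter, were added after seeing the data.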

Additional observations from a re-analysis of the deposited data

Results flagged for a closer look

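Of 20 sets of 8 organ libraries examined (log2 CPM of each gene in each organ, except Marco and Timd4 in marrow, which were at 0 throughout, and the log2 mt-Nd6 ratio), 6 had a library apart from the rest, meaning that its gap to the next library exceeded 0.526 of the range. For 8 independent, normally distributed values chance gives about 1 in 20. That rate does not hold here, because counts of 0 or 1 open wide gaps on the log2 scale and the sets share libraries. No excess is therefore read from the 6. In spleen, library 6 was lowest for Cd5l (0.576 of the range, 5 counts) and for Siglec1 (0.708, 0 counts). Library 8 was lowest in spleen for C1qa (0.743, 0 counts) and C1qb (0.646, 1 count), and it had the highest mt-Nd6 ratio (0.554). In marrow, library 6 was lowest for Mrc1 (0.648, 0 counts).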

How the results depend on the processing

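Genes called in spleen against marrow numbered 1598, and 4726 without a filter, 884 without the genes opposite coding exons and 1011 when spleen library 8 was left out as well. Of the 10 macrophage genes 2 were called, and 8 without a filter, 0 when every library of an organ needed 10 counts, 1 (Marco) with all 3 groups in 1 fit and 4 without spleen library 8 and the opposite-strand class. These differ by construction in the genes tested. Leaving out each library in turn gave 1545 to 2096 genes and 2 to 5 macrophage genes, the added ones being Cd5l, C1qa and C1qb, and 8 to 9 macrophage genes without a filter, the added one being Mrc1. Mrc1 was also called without a filter with RLE factors (adjusted p = 0.0494). With DESeq2 1802 genes and the same 2 macrophage genes were called. Runs with the default filter kept macrophage genes through their spleen counts, so nothing is read from their calls there. No fold change turned its direction in any alternative run. Of the 30 most alike genes, 3 were named again over the organ libraries alone. No paired analysis was possible because no count column can be tied to an animal. Fits with lymph node libraries, and a fit over all 5 groups or 48 libraries, were not run. Low counts limit all of this: 8 of the 10 genes were under the filter. The parts of sequencing depth and of the strand counted in these low counts were not tested.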
